A study of Solanum lycopersicum with 12 samples.

Results

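Heat shock proteins were represented by 6 probe sets for 6 of the 802 genes named among the 10101 tomato probe sets tested. They were taken as the probe sets whose gene symbol or synonym begins with HSP or holds HSP followed by a digit, with heat shock transcription factors left out. The platform symbol itself met the rule for 4 of them, Hsp90-1, HSP17-6, HSP17.4 and HSP21. The other 2, HSC80 and vis1, met it through the RefSeq synonyms hsp90-2 and sHSp20. Only 909 of the tested probe sets carry a gene symbol, so further heat shock protein genes may lie among the 9192 that carry none. The rule found 2 members of the HSP90 family and 4 small heat shock proteins, no HSP70 or HSP100 family member under an HSP name, and 0 probe sets named as heat shock factors.

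Heat shock proteins are molecular chaperones that assist the folding of other proteins and limit their aggregation. HSP90 proteins use ATP to bring client proteins such as kinases and receptors into their active form and are abundant in unstressed plant cells. Small heat shock proteins bind unfolding proteins without using ATP, and in plants most of them are scarce at normal temperature and strongly induced by heat and some other stresses.

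The study compared tomato var. Beta wild type (WT) with L4, a single homozygous line that expresses AtHMA4, a Zn-exporting P1B-ATPase of Arabidopsis, under the constitutive 35S promoter of cauliflower mosaic virus. All plants of both genotypes received 5 µM Zn, and the labels give 15 days of exposure and an age of 25 days, whereas the study's methods state a shorter exposure of younger plants. Laser capture took 2 root sectors of each genotype, the epidermis with the cortex (EC) and the stele (S), from root fragments. Each of the 4 groups (WT EC, L4 EC, WT S and L4 S) had 3 arrays from independent experiments, each on RNA pooled from several plants and amplified before labelling. Values are log2 signal, and an increase of 1 stands for a doubling. In such bulk RNA, fewer cells of a type and less RNA per cell cannot be told apart.

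The arrays differed in ways that bear on single values. Array medians lay between 3.72 and 4.02, and the lower quartile of all probe sets lay between 2.37 and 2.81. The mean signal of the 27 bacterial and phage control probe sets was 13.9 on L4 EC replicate 2, 12.4 on WT S replicate 3 and 11.9 on L4 S replicate 3, against 9.65 to 11.0 on the other arrays. The sector labels were checked against marker genes. Of 7 probe sets of epidermis and cortex markers, 6 were higher in EC than in S in WT and 5 in L4, and of 4 stele probe sets 1 was lower in EC in WT and 2 in L4, but none of these differences passed the adjusted test in limma. In WT, FRO1, ext1 and EXPA8 were higher in EC by only 0.017, 0.056 and 0.077, and 3 of the 4 stele probe sets were also higher in EC. At an unadjusted p under 0.05 in limma, 2 of the markers on both lists differed between the sectors in WT and 0 in L4. The markers thus separated the sectors weakly in WT and not at this threshold in L4. Both were phosphate transporters of the epidermis and cortex list, PT1 and PT2. Their L4 minus WT differences in EC were -1.75 and -1.52. Of all 7 epidermis and cortex probe sets, 4 were higher and 3 lower in L4 in EC. Of the 4 stele probe sets, 1 was higher and 3 were lower there. The stele marker sus3 had the smallest p of all markers in EC (limma unadjusted p = 0.000314). Its L4 minus WT difference was -1.73 in EC and -1.32 in S. None of these differences passed the adjusted test in limma. Whether the tissue content of the L4 EC captures differed from WT, and its part in the heat shock protein values, was not tested.

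No heat shock protein gene passed the adjusted test (an adjusted p under 0.05 with at least a 1.2-fold difference) in any comparison, and neither did any of the other probe sets (0%). In EC, HSP17-6 was the only member with an unadjusted p under 0.05, which 7.09% of all probe sets had there, and its 3 L4 arrays lay below its 3 WT arrays, where 12.3% of all probe sets had groups that do not overlap. In S, the differences of HSP17-6, HSP21 and vis1 were positive with all arrays and negative without L4 S replicate 3, on which these 3 small heat shock proteins had their highest signals and both HSP90 genes their lowest.

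**Figure D1:**
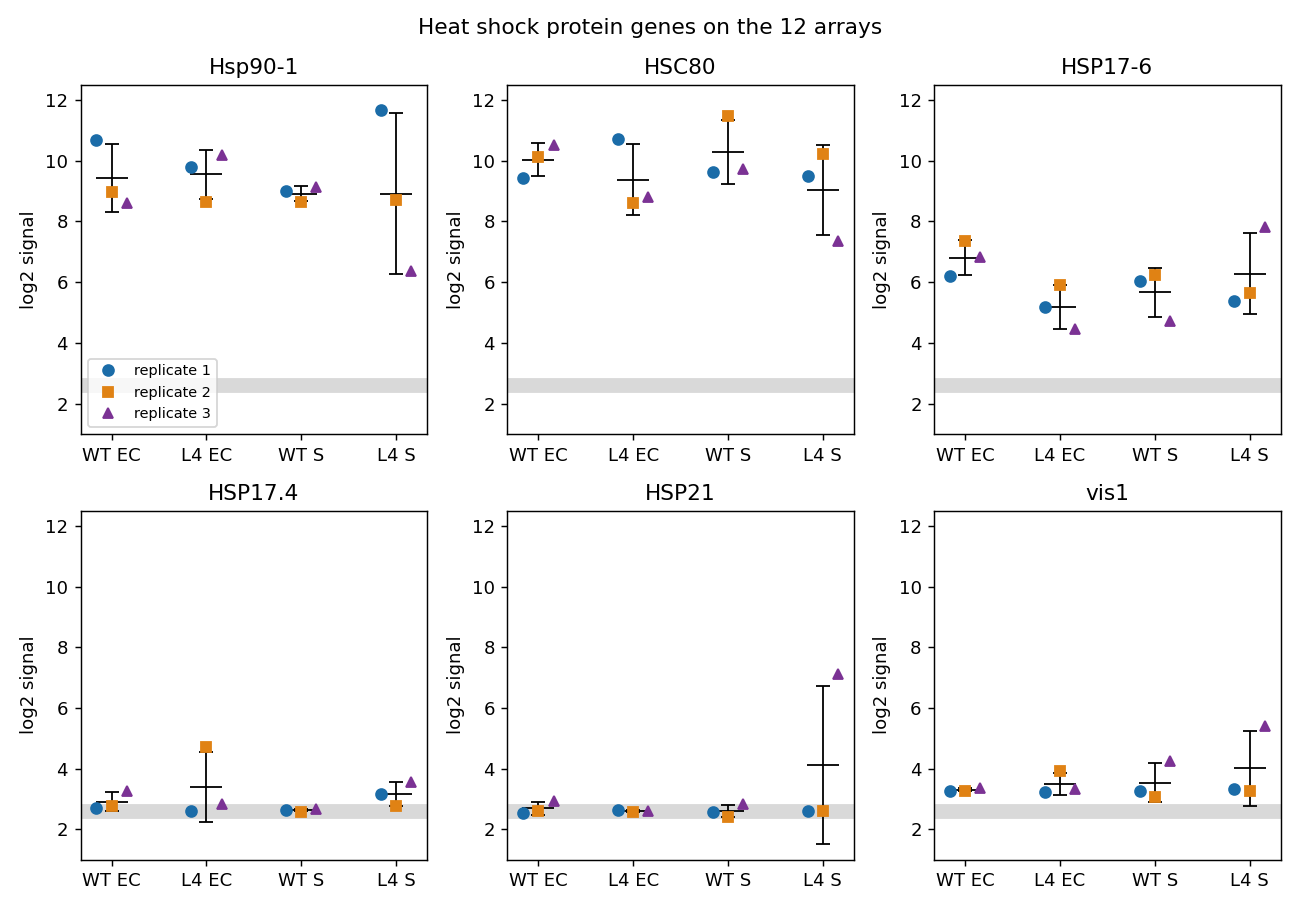
Log2 signal (vertical axis) of the 6 heat shock protein probe sets on each of the 12 arrays, by group, with the group mean and SD (n = 3) as bars and the range of the arrays' lower quartiles, 2.37 to 2.81, as a grey band. L4 S replicate 3 stands at 7.11 for HSP21, where the other 11 arrays lie between 2.41 and 2.92.

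Hsp90-1, a cytosolic HSP90, had signals of 10.70, 8.98 and 8.61 in WT EC, 9.79, 8.65 and 10.21 in L4 EC, 8.99, 8.64 and 9.13 in WT S and 11.66, 8.72 and 6.38 in L4 S, for replicates 1, 2 and 3. The WT S arrays were close together, whereas the L4 S arrays held both the highest and the lowest signal of all 12 arrays, 38.9-fold apart, so that the L4 S values surrounded those of WT S. The difference between L4 and WT was 0.12 in EC (SE 1.14, 95% interval -2.44 to 2.68, n = 3 per group, limma adjusted p = 0.968). In S it was -0.00093 (SE 1.14, interval -2.56 to 2.56, limma adjusted p = 1.00), and it turned positive after quantile normalization (0.073) and median centring (0.030). These intervals leave room for differences of more than 2 log2 units in either direction. The equal means in S rested on opposite arrays, since the difference was 1.27 without L4 S replicate 3 and -1.37 without L4 S replicate 1.

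HSC80, an HSP90 cognate that is expressed without heat, had signals of 9.45, 10.13 and 10.51 in WT EC, 10.72, 8.59 and 8.81 in L4 EC, 9.62, 11.49 and 9.71 in WT S and 9.51, 10.23 and 7.37 in L4 S. L4 overlapped WT in both sectors, and the array with the lowest signal was L4 S replicate 3, as for Hsp90-1. The difference was -0.65 in EC (SE 0.85, interval -2.57 to 1.26, limma adjusted p = 0.779), and it ran from -1.33 without L4 EC replicate 1 to -0.26 without L4 EC replicate 2. In S it was -1.24, the most negative of the 6 members there (SE 0.85, interval -3.15 to 0.68, limma adjusted p = 1.00), and it was -0.40 without L4 S replicate 3 and -0.63 without WT S replicate 2. HSC80 was thus on the lower side in L4 in both sectors, and neither difference passed the adjusted test.

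HSP17-6 is a cytosolic small heat shock protein of a gene family with similar sequences, so its signal cannot be assigned to 1 gene with certainty. Its signals were 6.21, 7.37 and 6.83 in WT EC, 5.19, 5.90 and 4.47 in L4 EC, 6.03, 6.24 and 4.73 in WT S and 5.38, 5.63 and 7.80 in L4 S. All L4 EC arrays were below all WT EC arrays, whereas in S the L4 arrays lay on both sides of 2 of the WT arrays. The group means were 6.81 ± 0.58 in WT EC and 5.18 ± 0.71 in L4 EC (SD, n = 3), a 3.08-fold lower mean signal in L4. The difference of -1.62 (SE 0.69, interval -3.18 to -0.059) had an unadjusted p of 0.0434 and an adjusted p of 0.683 in limma, so it did not pass. It stayed between -1.98 and -1.26 when each array was left out in turn, and it was -1.06 after quantile normalization (limma adjusted p = 0.733). It was -2.42 with an adjusted p of 0.00749 when limma weighted the arrays by their quality, a setting that called 1467 probe sets (14.5%) in EC. In S the difference was 0.61 (SE 0.69, interval -0.95 to 2.17, limma adjusted p = 1.00), and it was -0.16 without L4 S replicate 3 and 0.14 without WT S replicate 3.

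HSP17.4, another cytosolic small heat shock protein, was near the lower quartile on most arrays. Its signals were 2.70, 2.76 and 3.26 in WT EC, 2.62, 4.72 and 2.84 in L4 EC, 2.65, 2.58 and 2.67 in WT S and 3.16, 2.76 and 3.55 in L4 S. Only L4 EC replicate 2 stood clearly above the rest, and this array also had the strongest control signals and the narrowest distribution of values (SD over probe sets 3.04, against 3.32 to 3.48 on the others), whose part in this value was not tested. The difference in EC was 0.48 (SE 0.49, interval -0.61 to 1.58, limma adjusted p = 0.741), and it was -0.18 without that array. In S all 3 L4 arrays lay above all 3 WT arrays, by a mean of 0.52 (SE 0.49, interval -0.57 to 1.62, limma adjusted p = 1.00). This difference stayed between 0.33 and 0.72 when each array was left out in turn, and without L4 EC replicate 2, which enters only the shared estimate of the spread, its unadjusted p was 0.0444 and its adjusted p 1.00.

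HSP21, the small heat shock protein of the plastids, had signals of 2.53, 2.60 and 2.92 in WT EC, 2.63, 2.57 and 2.60 in L4 EC, 2.58, 2.41 and 2.83 in WT S and 2.61, 2.60 and 7.11 in L4 S. On 11 arrays it stayed within the range of the lower quartiles or just beside it, and on L4 S replicate 3 it was at 7.11, above the median of all arrays. The difference in S, 1.50 (SE 1.00, interval -0.74 to 3.74, limma adjusted p = 1.00), was the most positive of the 6 members and became -0.0011 without this array. In EC it was -0.089 (SE 1.00, interval -2.33 to 2.16, limma adjusted p = 0.974), between signals so near the lower quartile that a small difference could not be resolved. Its SE came from the spread shared by all groups. The SD of HSP21 was 0.21 in WT EC and 0.031 in L4 EC, against 2.60 in L4 S. The width of the EC interval thus largely reflected L4 S replicate 3 and not the EC arrays.

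The probe set of vis1, a small heat shock protein gene known in tomato for its link to the viscosity of fruit juice, had signals of 3.28, 3.27 and 3.36 in WT EC, 3.23, 3.92 and 3.34 in L4 EC, 3.25, 3.08 and 4.27 in WT S and 3.33, 3.28 and 5.42 in L4 S. The highest 3 signals were those of L4 S replicate 3, WT S replicate 3 and L4 EC replicate 2, which are also the 3 arrays with the strongest control signals. The part of that in these values was not tested. The difference was 0.19 in EC (SE 0.55, limma adjusted p = 0.886) and 0.47 in S (SE 0.55, limma adjusted p = 1.00). Both turned negative, to -0.019 and -0.23, when L4 EC replicate 2 and L4 S replicate 3, respectively, were left out. The difference in S also moved to 0.25 without WT S replicate 2 and to 0.84 without WT S replicate 3.

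Counted over the family, limma called 0 of 6 members between L4 and WT in EC, and 0 of 10101 probe sets (0%), where the smallest adjusted p was 0.139. At an unadjusted p under 0.05 with a difference of at least 1.2-fold, 1 of 6 members passed in EC, HSP17-6, beside 7.09% of all probe sets, and groups that do not overlap were found for 1 of 6 members beside 12.3% of all. In S the adjusted test called 0 of 6 members and 0 of 10101 probe sets (0%), the unadjusted threshold was passed by 0 of 6 members beside 2.49% of all, and the groups did not overlap for 1 member, HSP17.4, beside 4.3% of all. A count of 1 among 6 members is near these background shares. Weighting of the arrays was the only setting tried that called a member, HSP17-6 in EC, where it also called 14.5% of all probe sets.

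The direction was mixed within the family. In EC 3 members had a positive and 3 a negative difference, with a median of 0.016 beside 0.075 over all probe sets, of which 60.7% were positive. In S 4 were positive and 2 negative, with a median of 0.50 beside -0.0053 over all probe sets, of which 48% were positive. The 4 positive members in S were the small heat shock proteins, with a median of 0.57, and the 2 negative ones were the HSP90 genes, with a median of -0.62. Without L4 S replicate 3 the median was -0.079, without the 3 arrays with the strongest control signals 0.12, and over the 3 members with a mean signal of at least 4 it was -0.00093. The division by family rested on L4 S replicate 3, since without it HSP17-6, HSP21 and vis1 were negative (-0.16, -0.0011 and -0.23) and Hsp90-1 positive (1.27).

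**Figure D2:**
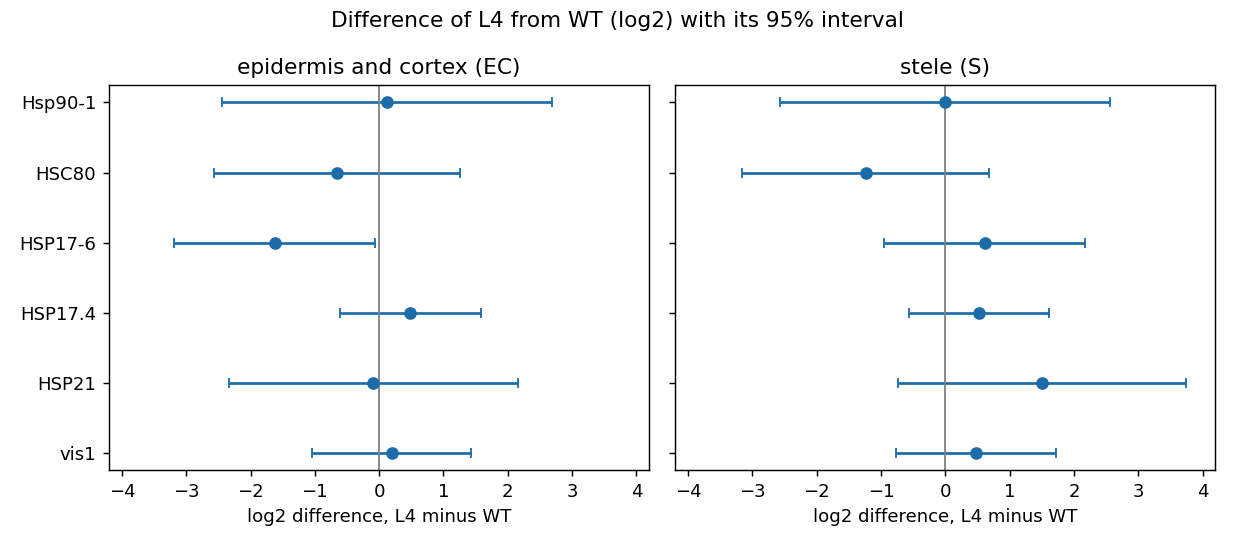
Log2 difference of L4 from WT (horizontal axis) for each heat shock protein gene in EC and in S, with its 95% interval from limma. All intervals include 0 other than that of HSP17-6 in EC (-3.18 to -0.059), and none of the differences passed the adjusted test.

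**Figure D3:**
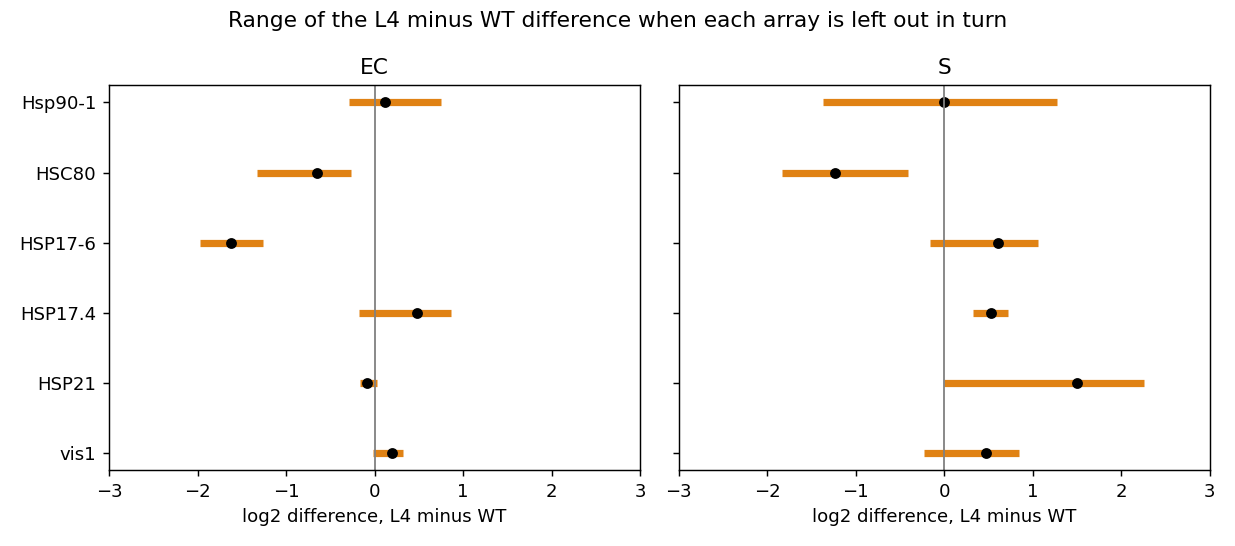
Log2 difference of L4 from WT (points, horizontal axis) for each gene in EC and in S, with bars from the lowest to the highest value obtained when each of the 12 arrays was left out in turn. The bar of HSP17-6 in EC runs from -1.98 to -1.26, and that of HSP21 in S from -0.0011 to 2.25.

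The replicate spread of each member was above the median of all probe sets, by an amount that differed between members. The pooled SD within groups was 1.50 for Hsp90-1, 1.31 for HSP21, 1.12 for HSC80, 0.906 for HSP17-6, 0.715 for vis1 and 0.629 for HSP17.4. All 6 exceeded the median of 0.572 over all probe sets, with Hsp90-1 above 91.7% of them, but vis1 above only 60.5% and HSP17.4 above only 54.5%. For the members other than HSP17.4, L4 S was the group with the largest SD. There the SD of Hsp90-1 (2.65) exceeded that of 99.1% and the SD of HSP21 (2.60) that of 98.9% of all probe sets, but that of HSP17.4 only 53.2%.

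L4 S replicate 3 stood apart for most members. It held the highest of the 12 signals for HSP17-6, HSP21 and vis1 and the lowest for Hsp90-1 and HSC80, and was thus at an extreme for 5 of 6 members, beside 15% of all probe sets. It was at an extreme by at least 1 log2 unit for 4 of 6 members, beside 2.06% of all probe sets. HSP17.4, the remaining member, had its second highest signal there (3.55). The difference of this array from the mean of the other 2 L4 S arrays was 4.50 for HSP21, 2.30 for HSP17-6 and 2.11 for vis1, but -3.81 for Hsp90-1 and -2.50 for HSC80. The mean signal of the 4 small heat shock proteins was 5.97 on this array against 3.31 to 4.27 on the other 11, and that of the 2 HSP90 genes 6.87 against 8.62 to 10.6, so both family means stood outside the range of all other arrays. The array also had the third strongest control signals, and its signal near the 3′ end exceeded that near the 5′ end by 8.12 for actin, 10.5 for GAPDH and 1.90 for ubiquitin, where the 12 arrays ranged from 7.63 to 10.5, 7.52 to 11.0 and 1.31 to 3.82. The part of these array properties in the heat shock protein values was not tested. L4 EC replicate 2 was at an extreme for 47% of all probe sets and for 1 of the 6 members, HSP17.4. WT S replicate 2 was at an extreme for 4 members, with the highest HSC80 and the lowest HSP17.4, HSP21 and vis1, beside 30% of all probe sets, and none of these 4 stood 1 log2 unit from the next array.

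**Figure D4:**
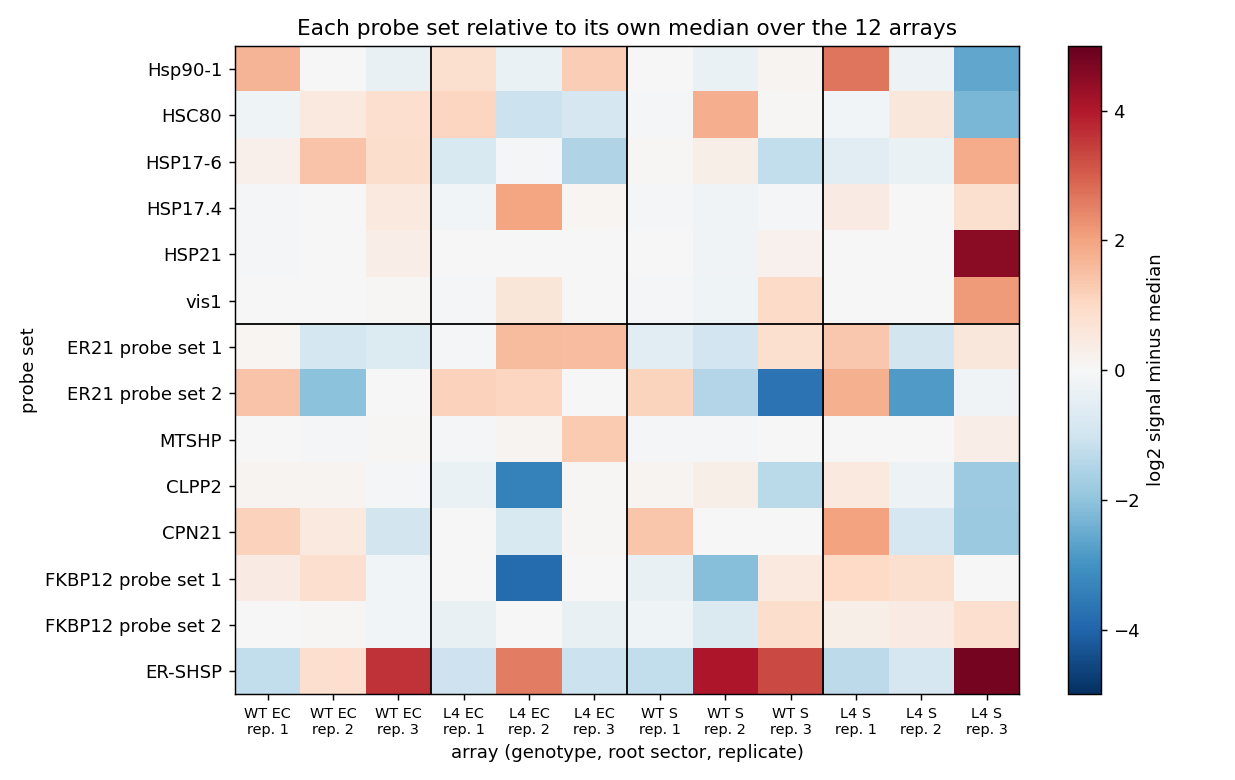
Log2 signal of each of the 6 heat shock protein probe sets (top) and of 8 probe sets of other chaperones and the protease gene CLPP2 (bottom) relative to its own median over the 12 arrays (colour scale), with 1 column per array. In the last column, L4 S replicate 3, the HSP90 genes are below their median and the small heat shock proteins above it.

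The sectors were compared within each genotype, with the EC and S arrays of 1 genotype and 1 replicate number treated as cut from 1 root pool. In WT, HSP17-6 was 1.14 higher in EC than in S (SE 0.78, interval -0.83 to 3.11, limma adjusted p = 1.00), with the EC arrays higher in all 3 pools. HSP17.4 was 0.28 higher in EC (SE 0.55, limma adjusted p = 1.00), and it was the 1 member whose EC and S arrays did not overlap, beside 6.22% of all probe sets. The difference of HSP17-6 ran from 0.66 without the pool of WT replicate 3 to 1.62 without that of WT replicate 1, and without the pool of L4 replicate 3, which enters only the shared spread, its unadjusted p was 0.0451 and its limma adjusted p 1.00. The size of the HSP17-6 difference thus depended on single pools, and it did not pass the adjusted test. The other 4 members differed by between -0.24 and 0.51, and their arrays of both sectors overlapped. Over the family 4 members were higher and 2 lower in EC, with a median of 0.18, beside 41.7% of all probe sets that were higher, and limma called 0 of 6 members and 0 of 10101 probe sets (0%), with 0 of 6 members past the unadjusted threshold beside 2.73% of all.

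In L4 the largest sector differences belonged to small heat shock proteins that were lower in EC, and both rested on the pool of replicate 3. The EC minus S difference of HSP21 was -1.51 (SE 0.93, interval -3.85 to 0.83, limma adjusted p = 0.950), and without that pool it was -0.0087. That of HSP17-6 was -1.09 (SE 0.78, interval -3.06 to 0.88, limma adjusted p = 0.950), and without that pool it was 0.036. HSP17.4 was 0.23 higher in EC with all arrays, but -0.63 without the pool of L4 replicate 2 (unadjusted p = 0.0239, limma adjusted p = 0.970) and -0.54 without the 3 arrays with the strongest control signals (unadjusted p = 0.0395, limma adjusted p = 0.319). EC and S arrays overlapped for all 6 members, beside 4.83% of all probe sets that did not overlap, and 0 of 6 members were called by limma, as were 0 of 10101 probe sets (0%), with 0 members past the unadjusted threshold beside 4.07% of all.

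Whether the L4 minus WT difference depended on the sector was tested as an interaction. For HSP17-6 the L4 minus WT difference in EC less that in S was -2.23, the largest of the family (SE 1.11, interval -5.01 to 0.55, unadjusted p = 0.0959, limma adjusted p = 0.983). It ranged from -2.91 to -1.11 when each array was left out with its pool, and it was -1.11 without the pool of L4 replicate 3. Without the root pool as a block its unadjusted p was 0.0482 and its limma adjusted p 0.967. For HSP21 it was -1.59 (SE 1.31, limma adjusted p = 0.983), and -0.089 without that pool. For HSP17.4 it was -0.042 (SE 0.78, limma adjusted p = 0.993), but -0.90 without the pool of L4 replicate 2 (unadjusted p = 0.0168, limma adjusted p = 1.00) and -0.66 without the 3 arrays with the strongest control signals (unadjusted p = 0.0399, limma adjusted p = 0.344). Of the 6 members 0 were called, as were 0 of 10101 probe sets (0%), and 0 members passed the unadjusted threshold beside 2.4% of all, so with all 12 arrays no sector dependence of the genotype difference was detected for any member.

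No heat shock protein level shared by the arrays of 1 replicate number was detected. In a limma F-test over the 3 replicate numbers with the group in the model, 0 of 6 members were called and 0 passed the unadjusted threshold, beside 7.47% of all probe sets, and 0 of 10101 probe sets (0%) passed the adjusted test. The smallest p among the members was that of Hsp90-1 (0.161, limma adjusted p = 0.860).

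A list of other chaperones and related genes outside the HSP names held 8 probe sets of 6 genes. The counts include CLPP2, which encodes a protease subunit and not a chaperone, and ER-SHSP, described below. In both sectors 0 of the 8 passed limma's adjusted test. The unadjusted threshold was passed by 0 of the 8 in either sector, beside 7.09% of all probe sets in EC and 2.49% in S. In EC 3 were higher and 5 lower in L4, with a median of -0.36, and in S 5 were higher and 3 lower, with a median of 0.34. The smallest p in EC was that of 1 of the 2 probe sets of ER21, which the study's gene table names as an HSP70 cognate, with a difference of 1.51 (SE 0.70, limma adjusted p = 0.707). Weighting of the arrays raised it to 1.98 with a limma adjusted p of 0.0209, a setting that called 14.5% of all probe sets in EC. The other ER21 probe set in EC differed by 0.95 (SE 1.46, limma adjusted p = 0.809). The mitochondrial small heat shock protein MTSHP differed by 0.45 in EC (limma adjusted p = 0.715), by 1.16 with weighted arrays (adjusted p = 0.0116) and by 0.018 without L4 EC replicate 3, its highest array. A probe set of FKBP12, a peptidyl-prolyl isomerase, had the most negative difference of the list in EC, -1.65 (SE 1.02, limma adjusted p = 0.715), and it was -0.38 without L4 EC replicate 2. In S this probe set differed by 1.26 (SE 1.02), with a range of 0.52 to 1.84 when each array was left out. The other, brighter FKBP12 probe set differed by -0.22 in EC (SE 0.35, limma adjusted p = 0.811). This brighter FKBP12 probe set had the smallest p of the list in S, with a difference of 0.53 (SE 0.35, limma adjusted p = 1.00) and a range of 0.18 to 0.97.

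A small heat shock protein of the endoplasmic reticulum, ER-SHSP, does not meet the letters of the rule and was added after its symbol and values were seen. Its signals were 2.33, 4.43 and 7.20 in WT EC, 2.53, 6.14 and 2.51 in L4 EC, 2.33, 7.63 and 6.89 in WT S and 2.29, 2.72 and 8.35 in L4 S. All 4 arrays with the number 1 were at or below 2.53, and the arrays with the other numbers reached from the lower quartile to the highest signal, which was again on L4 S replicate 3. The limma F-test for the replicate number gave ER-SHSP an unadjusted p of 0.0596 (adjusted p = 0.701). In the same list CPN21 (0.0357, adjusted p = 0.616) and 1 of the 2 ER21 probe sets (0.0405, adjusted p = 0.633) had a smaller p in this F-test. Both passed the unadjusted threshold, beside 7.47% of all probe sets. L4 differed from WT by -0.93 in EC and by -1.16 in S (SE 2.08 each), which is less than the spread between replicates. The value in S ran from -3.11 without L4 S replicate 3 to -0.079 without L4 S replicate 1.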

How the data were processed

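RNA of laser-captured EC and S was measured on 12 GeneChip Tomato Genome Arrays. The deposited values are log2 signals that the authors obtained with GeneChip Command Console. The sources used here do not give how probes were summarised or arrays normalized. The number of arrays limits the precision. All 12 value columns were used. The table holds 10209 probe sets, of which 108 are array controls. The other 10101 were all tested, dim ones included. Symbols came from the platform annotation, with synonyms from RefSeq through gene identifiers for 885 probe sets.

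Differences were tested with limma 3.58.1 (lmFit, eBayes) in R 4.3.3 on all 12 arrays (8 residual degrees of freedom). The comparison of sectors and the interaction had the root pool, taken from genotype and replicate number, as a block (4 residual degrees of freedom), on the assumption, taken from the design and not stated in the labels, that EC and S arrays of 1 number come from the same roots. The deviations of such EC and S arrays correlated at 0.062 to 0.63 in WT but at -0.27 to 0.031 in L4. Benjamini-Hochberg adjustment ran over the 10101 probe sets, and a call needed an adjusted p under 0.05 with at least a 1.2-fold difference. The script was tested on simulated data. Figures were drawn with matplotlib 3.10.9.

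The members, lists and tests were chosen with earlier results of these data known. Every member was to be described, in full the 3 with the smallest p in each sector and those with the highest and lowest mean; as there were only 6, all are given. Of the other chaperones at most the 3 genes with the smallest p per sector were to be named; ER-SHSP was named after its values were seen. No sequence is printed. Alternatives were median centring, quantile normalization, a trended robust fit, a minimum mean log2 value of 4, blocks by replicate number or pool, the 6 arrays of a sector alone, array weights and leaving out each array. Leaving out the 3 arrays with the strongest control signals was chosen after seeing the data.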

Additional observations from a re-analysis of the deposited data

How the results depend on the processing

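Array weights called 1 member in EC (0 otherwise), beside 14.5% of all probe sets. The count of members past the unadjusted threshold in EC, 1, was 0 after quantile normalization, with a trended robust fit and with the replicate number as a block, and 0 to 1 when each array was left out; in S, 0, it was 0 to 1 (HSP17.4 without L4 EC replicate 2). The replicate numbers are not stated to pair WT with L4, and the deviations of same-numbered WT and L4 arrays correlated between -0.10 and 0.38, so that the block is given here only; with it 0 members were called. Without the block by root pool, 0 members were called in the comparison of sectors and in the interaction. The median difference in EC was -0.65 over the 3 members with a mean of at least 4.

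Directions changed as follows, all without a call. In EC, HSP17.4 was -0.029 with array weights and -0.18 without the 3 arrays with the strongest control signals, and vis1 -0.019 without these. In S, Hsp90-1 was 0.073 after quantile normalization, 0.030 after median centring, 0.70 with array weights and 1.37 without those 3 arrays, and HSP17-6 was -0.12 and -0.62 under the latter 2. Without them, the EC minus S difference in L4 was 0.019 for HSP21 and -0.54 for HSP17.4. The interaction of HSP17.4 was 0.13 after quantile normalization.

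With each array left out, the range in EC was -0.29 to 0.75 for Hsp90-1, -0.18 to 0.87 for HSP17.4, -0.17 to 0.031 for HSP21, -0.019 to 0.33 for vis1 and -2.14 to 0.35 for ER-SHSP. In S it was -1.37 to 1.27 for Hsp90-1, -0.16 to 1.05 for HSP17-6, -0.0011 to 2.25 for HSP21 and -0.23 to 0.84 for vis1. For EC minus S in L4 it was -1.76 to 0.036 for HSP17-6 and -0.63 to 0.71 for HSP17.4, and for the interaction of HSP17.4 -0.90 to 0.43. The causes were not tested. HSP17.4 and HSP21 lie near the lower quartile of the arrays, where small differences cannot be resolved.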

Other observations

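The 5 named probe sets whose signals followed the mean of the 6 heat shock protein probe sets most closely over the 12 arrays, of 903 compared, are given as a description, since all values share the same arrays. PDF1B, a peptide deformylase, had a Pearson r of 0.71, and 0.84 over the 11 arrays without L4 S replicate 3. CCS had 0.68 and 0.79 without that array. LOC544264 (0.75), the beta-amylase gene BMY3 (0.69) and the transcription factor gene AREB1 (0.66) came to 0.41, 0.17 and 0.22 without it, so that their likeness to this mean rested largely on that array. The mean joins HSP90 and small heat shock protein genes, which lay in opposite directions on that array, so likeness to it is not likeness to each member. As the highest of 903, these r values are not evidence of a link.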
